A study of Mus musculus with 15 samples.

Results

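The clustered replication-dependent histone genes are the multicopy genes that encode the linker histone H1 and the core histones H2A, H2B, H3 and H4. Members were all rows of the count table whose identifier maps to a protein-coding symbol beginning with Hist1h, Hist2h, Hist3h or Hist4h in GENCODE M21. The rule found 67 genes among 55416 identifiers and used no measured value. Of these, 54 lie in the Hist1 cluster on chromosome 13, 10 in Hist2 on chromosome 3, 2 in Hist3 on chromosome 11 and 1, Hist4h4, on chromosome 6. By protein, 6 encode H1, 18 H2A, 18 H2B, 12 H3 and 13 H4. Counts were present for 61 members, and 52 passed the filter on low counts and were tested.

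Libraries came from 3 stable lines of neural precursor cells, the proliferating cells that give rise to neurons and glia, taken from the hippocampus of female mice aged 6 weeks, with 5 libraries per line. By piggyBac transposition each line received a cassette with the doxycycline-dependent TRE3G promoter, an SV40-TetON-3G transactivator and puromycin resistance. The Atf3 and Atf4 lines carried the coding sequence of Atf3 or Atf4, 2 stress-responsive transcription factors, behind TRE3G, and the control line carried neither. In all 3 lines EGF and FGF were withdrawn to start differentiation, 100 ng/ml doxycycline was added at that moment, and cells were harvested after 10 h. Each construct stands for 1 line, so a transgene and its line cannot be told apart, and the labels do not say whether libraries came from separate cultures. The p-values therefore measure only how these samples vary among themselves, and that variation may be technical.

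Library totals ran from 53.7 to 69.6 M counts. Atf3 averaged 1942 CPM, counts scaled to a common library total, in its own line against 5.02 in the control line and 1.40 in the Atf4 line. Atf4 averaged 153 CPM in its own line, 83.2 in control cells and 250 in Atf3 cells. In the control line the 6 neural precursor markers summed to 3041 to 3295 CPM per library, the 6 microglial markers to 0.668 to 1.27 and the 5 mural and fibroblast markers to 0.774 to 0.994. The 6 oligodendrocyte lineage markers summed to means of 4057 CPM in control cells, 3230 in Atf3 cells and 3761 in Atf4 cells. The 5 neuronal markers summed to 1767, 1464 and 1440 CPM. Sums were 670, 884 and 884 for 5 astrocyte markers and 22.9, 35.3 and 34.4 for 3 ependymal markers. All 6 oligodendrocyte lineage markers fell in the Atf3 line and 5 in Atf4 cells, beside 36.3% and 29.7% of all genes. Of the astrocyte markers 3 and 4 fell and 1 rose in each. The 4 endothelial markers summed to 44.6 ± 1.71 CPM (SD, n = 5) in control cells, 10.2 ± 1.31 in Atf3 cells and 16.7 ± 1.58 in Atf4 cells. That sum is nearly all Kdr, at 44.3, 10.1 and 16.4 CPM, while Pecam1, Cdh5 and Cldn5 averaged 0.171, 0.117 and 0.00964 CPM in control cells. The part of these markers in the histone results was not tested.

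Replication-dependent histone genes supply the protein that packages new DNA and are transcribed mainly in S phase. Their pre-mRNAs have no introns and are usually cut just after a conserved stem-loop, or hairpin, so that the mature mRNA ends there without a poly(A) tail. The stem-loop binding protein, Slbp, holds the hairpin, and the U7 small nuclear ribonucleoprotein guides the cut. Some members, Hist1h2bc, Hist1h1c and Hist2h2be among them, are also known to give longer polyadenylated mRNAs, which cells can make outside S phase.

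A perfect hairpin, with a stem of 6 paired bases beginning GG and a loop of 4 bases beginning TT, was found after the stop codon in an annotated transcript of 44 of the 67 members. These hairpins are shown because they mark the end that separates the annotated transcript forms below; the 16 hairpin bases are in capitals, with 5 flanking bases on each side, written as DNA in the sense of the mRNA.
Hist1h1c: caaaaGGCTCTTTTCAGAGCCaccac
Hist3h2ba: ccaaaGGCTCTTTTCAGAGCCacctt
Hist3h2a: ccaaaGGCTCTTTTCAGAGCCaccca
Hist2h3c2: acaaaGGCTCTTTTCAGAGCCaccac
Hist1h3c: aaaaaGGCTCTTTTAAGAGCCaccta
Hist1h4h: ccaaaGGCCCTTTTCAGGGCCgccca
Hist1h4i: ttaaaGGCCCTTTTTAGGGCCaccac
Hist1h4j: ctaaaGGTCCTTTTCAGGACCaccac
On GRCm38 the hairpin of Hist1h1c lies at chr13:23739512-23739527, that of Hist3h2ba at chr11:58949349-58949364 and that of Hist3h2a at chr11:58955172-58955187, all on the plus strand. The hairpin of Hist2h3c2 lies at chr3:96238485-96238500 and that of Hist1h4i at chr13:22040966-22040981, both on the minus strand.

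The core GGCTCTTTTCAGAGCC was held by 26 members, none of them an H4 gene. Counted from 1 at the first base of the core, 7 H4 genes, such as Hist1h4h, differed from it by T4C and A13G, which leaves the stem paired. Another 6 members, such as Hist1h3c, differed by C10A in the loop. Hist1h4i and Hist2h4 combined T4C, C10T and A13G, Hist1h4b and Hist1h4j had C3T, T4C, A13G and G14A, and Hist2h2ac had C10T alone. Of the 23 members with no hairpin, 15 have an annotation that ends within 2 bases of the stop codon. The annotated transcripts of Hist1h2bc and Hist2h2be run 742 and 2192 bases past the stop codon without a hairpin.

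Few members carried most of the histone signal. Only 15 of 67 members averaged at least 1 CPM over the 15 libraries, and 3 averaged at least 10 CPM. The other 37 tested members averaged 0.138 to 0.963 CPM and rested on 2 to 90 counts per library. Hist1h1c, a linker histone, and Hist1h2bc, an H2B gene, were highest at 65.5 and 59.5 CPM, and together held 54.0% of member counts in control libraries, 59.4% in Atf3 and 58.2% in Atf4 libraries. Per kb of exon, the scale on which genes of different length can be compared, Hist1h2bc led with 51.5 CPM per kb, followed by Hist1h1c with 42.0. Hist1h4i with 12.8 and Hist3h2ba with 12.7 CPM per kb came next and lay close together, then Hist2h2be with 9.04, Hist1h2bg with 7.62, Hist2h3c2 with 6.25 and Hist1h4k with 5.21. These are means over the 15 libraries. For scale, the replication-independent variants H3f3a and H3f3b encode the H3.3 that cells deposit throughout the cell cycle. In the control line they stood at 229 and 237 CPM per kb, beside 55.7 for Hist1h2bc and 7.80 for Hist2h3c2 in that line.

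The members at these levels were almost all genes with a long annotated 3′ end. A long end was taken as more than 100 annotated bases past the hairpin, or more than 100 bases after the stop codon where no hairpin was found. Of 28 members with a long end 14 averaged at least 1 CPM, against 0 of 21 that end within 100 bases of their hairpin and 1 of 18, Hist1h4k, with neither a hairpin nor a long end. The highest member of the 21 that end near the hairpin averaged 0.881 CPM. The medians per kb were nearer, at 0.835, 0.658 and 0.551 CPM per kb, so that the long class held both the highest members and many low ones. The labels do not state poly(A) selection or removal of ribosomal RNA. Of 9 listed RNAs that cells make without a poly(A) tail, all of them short, 5 were in the table, and together they summed to 0 to 0.0559 CPM per library.

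**Figure D1:**
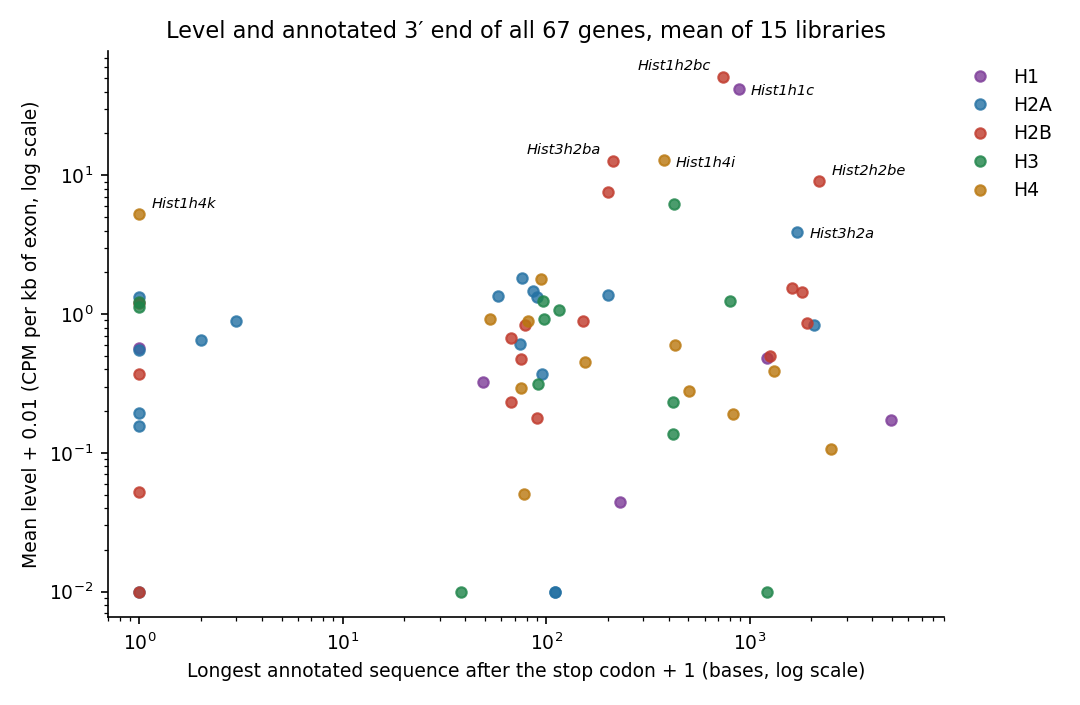
Mean level of each of the 67 genes over 15 libraries, in CPM per kb of exon plus 0.01, against the longest annotated sequence after its stop codon plus 1 base, both on log scales and coloured by protein family. Hist1h2bc, Hist1h1c and the other labelled genes except Hist1h4k have more than 100 annotated bases after the stop codon, and Hist1h4k has none.

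Several members cannot be counted apart from their neighbours or copies. No count was given to 6 members in any library: Hist1h2aa, Hist2h2aa1, Hist2h2aa2, Hist2h3c1, Hist2h3b and Hist2h2bb. For 5 of these every exon base also belongs to another annotated gene and every 150-base window, the read length, occurs in another gene, so a level of 0 says nothing about them. Over the 67 members a median of 24.5% of windows occurs in another gene, 13 members share none and 24 share over 50%. Of the 15 members at 1 CPM or more, Hist1h2bq and Hist1h2br share 92.4% and 84.2% of windows, Hist2h3c2 59.4% and Hist1h4k 53.4%, and their levels are uncertain in that measure. Exon bases of 24 members overlap another gene, in 14 cases an annotated miRNA, and whether the counting used strand is a point the sources used here do not give.

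The first comparison asked how histone mRNA stood in the Atf3 line against the control line. Summed over all members, the level was 249.6 ± 13.4 CPM in the control line and 202.9 ± 10.8 CPM in Atf3 cells (SD, n = 5), with every control library (238 to 271) above every Atf3 library (188 to 214). The Atf3 sum was 81.3% of the control sum, or 73.9% with plain library totals. In bulk samples fewer cells of a type and less RNA per cell cannot be told apart. With edgeR's quasi-likelihood test at an adjusted p under 0.05, 15 of 52 tested members fell and 1 rose. Over all 18244 genes tested in that fit 36.3% fell and 36.8% rose, so the share of members that fell is no larger than the background. The median log2 fold change of the members was -0.30 against -0.02 over all genes. Of the 15 members that averaged 1 CPM or more, 11 fell and 0 rose, beside 35.2% and 45% of all genes at that level. Lines did not overlap for 7 of 52 members, all lower in the Atf3 line, beside 28.7% lower and 32% higher over all genes. Without control libraries 4 and 5, which hold more Atf3 counts than the other controls, 10 members fell, 8 of them among the 15 higher ones. With plain library totals 21 members fell and 0 rose, and the median was -0.43 for members and -0.16 for all genes. Shares of all genes called were taken from the main fit only, here and below, so counts from these refits have no background of their own.

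The second comparison set the Atf4 line against the same control libraries, so the 2 sets of values share their controls. The summed level was 205.9 ± 21.1 CPM in the Atf4 line, with libraries from 179 to 233, again below every control library and at 82.5% of the control sum on average. Here 12 of 52 members fell and 3 rose, beside 29.7% and 31.9% of all genes, and the median log2 fold change was -0.10 against -0.00085. Scaling by plain library totals gave 14 falls and 1 rise, with no share of all genes beside them. In the main fit 11 of the 15 higher members fell and 0 rose, beside 30.9% and 39% of all genes at that level. Lines did not overlap for 6 members, all lower, beside 21.8% lower and 26.1% higher over all genes. Without control libraries 4 and 5, 7 members fell, all of them among the 15 higher ones, and 1 rose.

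**Figure D2:**
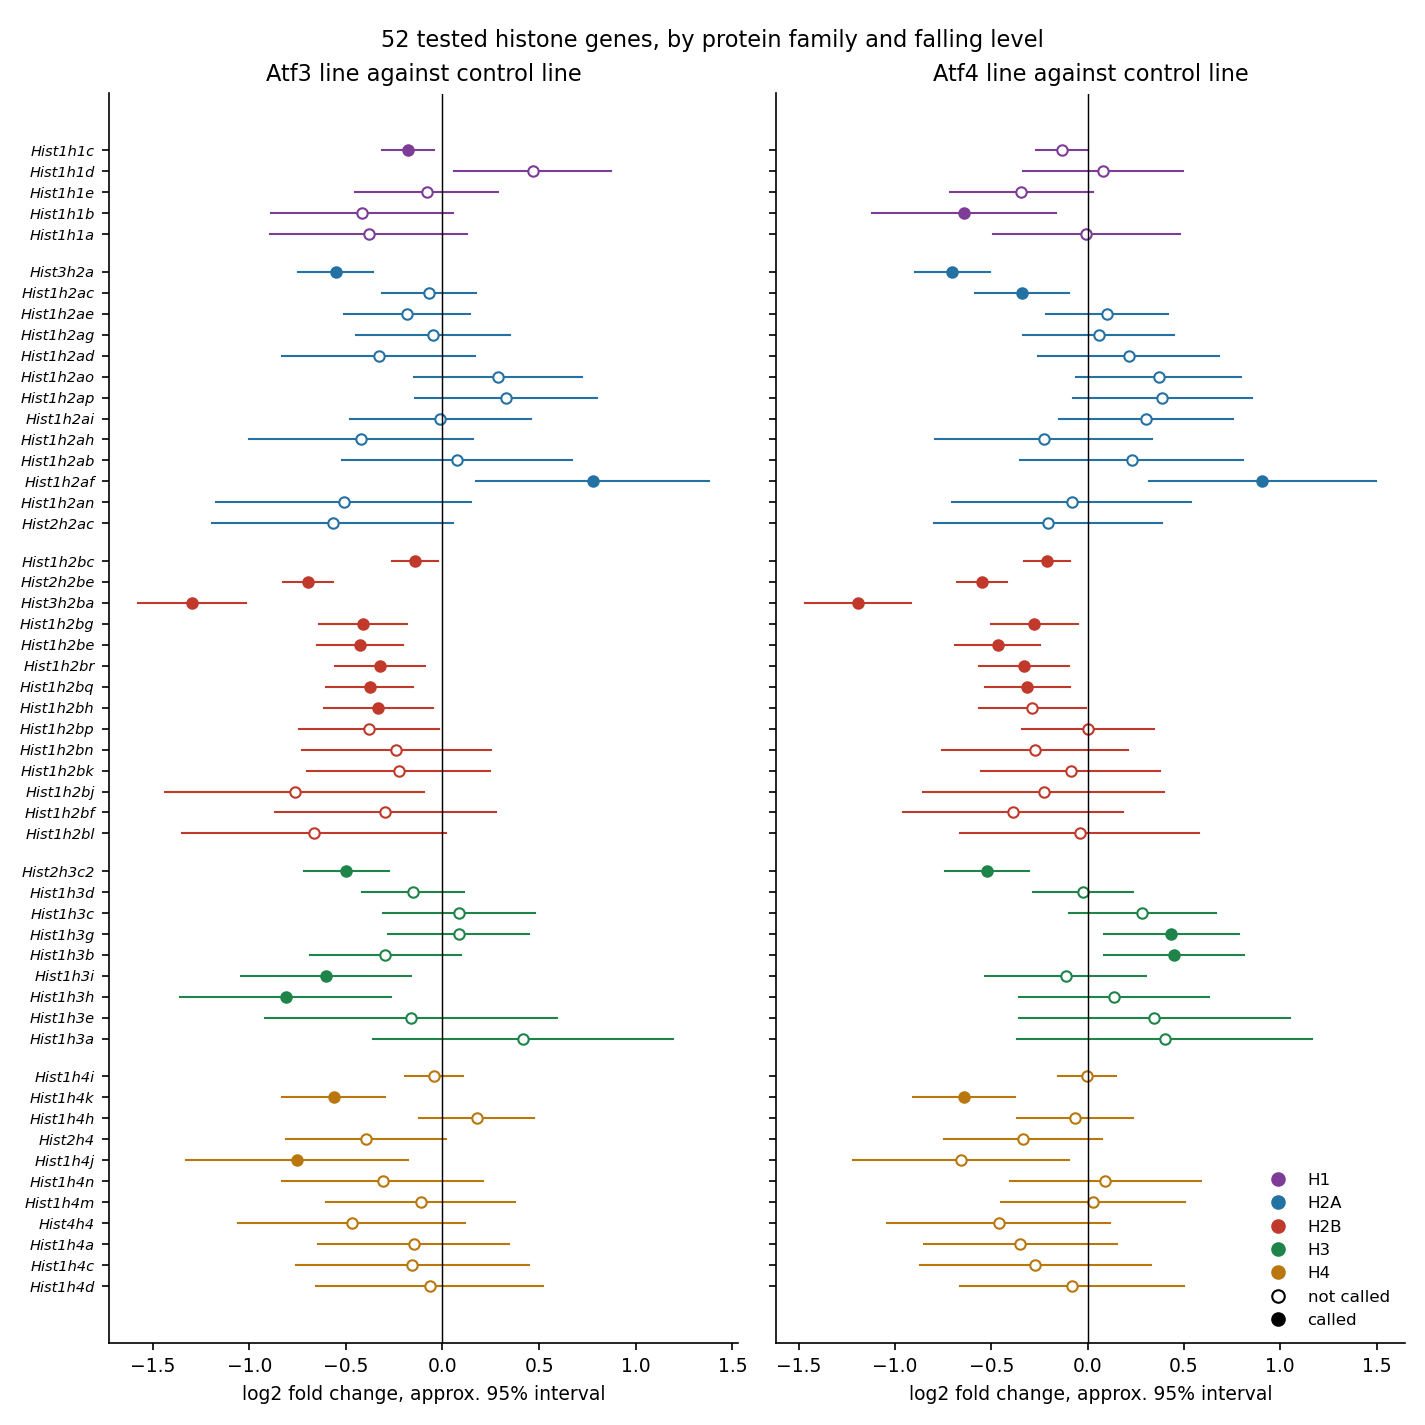
Log2 fold change of the 52 tested members in the Atf3 line and the Atf4 line against the control line, ordered by family and by falling level, with approximate 95% intervals from the standard error; filled points passed an adjusted p under 0.05. The 14 H2B genes all lie to the left in the Atf3 panel and 13 of 14 in the Atf4 panel, and Hist3h2ba lies farthest left at -1.30 and -1.19.

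H2B genes, which encode the partner of H2A in the nucleosome, made up most of the falls. Of 14 tested H2B members 8 fell in the Atf3 line and 7 in Atf4 cells, with none higher and median log2 fold changes of -0.38 and -0.28, beside 36.3% and 29.7% of all genes that fell. Without control libraries 4 and 5 these counts were 5 and 4, and with plain library totals 11 and 7, but shares of all genes were not counted in those refits. Among H2A members 1 of 13 fell and 1 rose in the Atf3 line, and 2 fell and 1 rose in Atf4 cells. Among H3 members 3 of 9 fell in the Atf3 line, and 1 fell and 2 rose in Atf4 cells. For H4 2 of 11 fell in the Atf3 line and 1 in Atf4 cells, and for H1 1 of 5 fell in each. For H2A, H4 and H1 these shares of falls lie below those of all genes, and for H3 the 3 of 9 is near the 36.3%. Whether families differ from one another was not tested.

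Hist3h2ba, an H2B gene at chr11:58948920-58949533, showed the largest fall of any member in both comparisons. Its 5 control libraries held 13.3, 11.1, 11.8, 12.4 and 14.98 CPM. Its Atf3 libraries held 4.85, 5.21, 4.08, 6.96 and 4.86 CPM, and its Atf4 libraries 7.12, 6.22, 5.61, 4.94 and 3.86. Every control library was above every library of the other 2 lines. The level was 2.45-fold lower in the Atf3 line (log2 -1.30, SE 0.14, edgeR adjusted p = 1.57e-07) and 2.28-fold lower in Atf4 cells (log2 -1.19, SE 0.14, adjusted p = 7.38e-07). It was the only called member with a change of at least 2-fold in either comparison, a size at which 10.4% of all genes fell and 7.12% rose with Atf3, and 4.83% fell and 4.19% rose with Atf4. None of its windows occurs in another gene.

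Hist3h2a, the H2A gene beside it at chr11:58954685-58956830, held 11.6, 10.5, 10.8, 10.9 and 11.1 CPM in the control libraries. In the Atf3 libraries it held 6.55, 7.52, 7.08, 7.50 and 8.75 CPM, and in the Atf4 libraries 8.63, 6.91, 6.82, 5.88 and 5.39. The lines did not overlap in either comparison. The log2 fold change was -0.55 (SE 0.10, edgeR adjusted p = 6.33e-05) in the Atf3 line and -0.70 (SE 0.10, adjusted p = 6.27e-06) in the Atf4 line. Its long 3′ end shares 33.0% of its exon bases with Trim17, named here for that overlap, which averaged 1.45, 0.509 and 0.661 CPM in the control, Atf3 and Atf4 lines, and the part of those reads in the fall of Hist3h2a was not tested.

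Hist2h2be, an H2B gene at chr3:96221119-96223738, fell clearly from the third highest level. Its control libraries held 32.1, 31.0, 31.3, 29.2 and 30.8 CPM. Its Atf3 libraries held 18.4, 20.1, 17.0, 19.8 and 20.0 CPM, and its Atf4 libraries 22.9, 23.6, 21.6, 19.4 and 18.01. All control libraries lay above all others, and the control values spread little. The level was 1.62-fold lower in the Atf3 line (log2 -0.69, SE 0.07, edgeR adjusted p = 2.13e-08) and 1.46-fold lower in Atf4 cells (log2 -0.55, SE 0.07, adjusted p = 8.70e-07). Its divergent neighbour Hist2h2ac, an H2A gene whose start lies 239 bases away, averaged 0.362 CPM per kb and was not called.

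The 2 highest members changed little. Hist1h1c, at chr13:23738808-23740367, held 64.7, 67.7, 73.5, 65.1 and 80.6 CPM in the control libraries, 58.9, 65.5, 57.8, 65.7 and 62.7 in the Atf3 libraries and 73.4, 66.0, 64.9, 60.5 and 56.0 in the Atf4 libraries. The lines overlapped in both comparisons. Its log2 fold change was -0.18 (SE 0.07, edgeR adjusted p = 0.0261) in the Atf3 line and -0.13 (SE 0.07, adjusted p = 0.105) in the Atf4 line. The first call was lost without control library 5, Atf3 library 1 or Atf3 library 3. The log2 fold changes there were -0.14, -0.16 and -0.15, at edgeR adjusted p of 0.0616, 0.0689 and 0.0750. It was also lost with the replicate block (log2 -0.18, edgeR adjusted p = 0.0503) and without control libraries 4 and 5 (-0.16, 0.0623). With a 1 CPM filter Hist1h1c was called lower in both comparisons, at log2 -0.24 and -0.17 (edgeR adjusted p = 0.00442 and 0.0409).

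Hist1h2bc, at chr13:23684199-23692908 and annotated with 2 exon blocks, held 61.7, 60.9, 63.0, 66.2 and 70.5 CPM in the control libraries, 59.99, 61.2, 56.1, 58.8 and 55.7 in the Atf3 libraries and 63.7, 59.7, 53.7, 52.4 and 48.7 in the Atf4 libraries. Libraries of the lines overlapped here too. It fell by 0.21 on the log2 scale in Atf4 cells (SE 0.06, edgeR adjusted p = 0.00580). That change is under 2-fold, and its call was kept in all 24 refits with another tool, scaling, filter, block or choice of libraries. In the Atf3 line it fell by 0.14 (SE 0.06, edgeR adjusted p = 0.0426). That call was lost without control library 5 or any 1 of Atf3 libraries 1, 3, 4 and 5. The log2 fold changes there were -0.15 to -0.12, at edgeR adjusted p of 0.0546 to 0.104. It was also lost with no filter (log2 -0.11, edgeR adjusted p = 0.105) and with the replicate block (-0.15, 0.0540). Without control libraries 4 and 5 together the log2 fold change was -0.10 (edgeR adjusted p = 0.212).

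Hist2h3c2, the highest H3 gene, at chr3:96238108-96239127, held 7.45, 7.34, 8.21, 7.58 and 9.17 CPM in the control libraries. It held 6.47, 5.95, 5.19, 6.11 and 4.51 CPM in the Atf3 libraries and 6.47, 5.86, 5.54, 5.67 and 4.08 in the Atf4 libraries. Each control library stood above all others, and the log2 fold changes were -0.50 (SE 0.11, edgeR adjusted p = 0.000584) and -0.52 (SE 0.11, adjusted p = 0.000472).

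Hist1h4i, the highest H4 gene, at chr13:22040636-22041362, was level across the lines. It held 8.79, 9.38, 9.65, 8.64 and 10.5 CPM in the control libraries, 7.75, 9.63, 8.81, 9.80 and 9.56 in the Atf3 libraries and 10.6, 9.55, 9.26, 9.10 and 8.31 in the Atf4 libraries. Its log2 fold changes of -0.04 and -0.0035 did not pass the test, with approximate 95% intervals of -0.19 to 0.11 and -0.15 to 0.15. Hist1h4k, at chr13:21750194-21750505, which shares over 50% of its windows with other H4 genes, behaved otherwise. It held 2.17, 1.99, 2.27, 2.02 and 2.08 CPM in the control libraries, 1.61, 1.15, 1.48, 1.75 and 1.15 in the Atf3 libraries and 1.70, 1.36, 1.23, 1.38 and 1.04 in the Atf4 libraries. No library of the other 2 lines reached the control range, and the log2 fold changes were -0.56 (SE 0.14, edgeR adjusted p = 0.00110) and -0.64 (SE 0.14, adjusted p = 0.000446).

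Hist1h2bg, an H2B gene at chr13:23571396-23572013, held 5.25, 6.02, 5.56, 5.40 and 5.22 CPM in the control libraries. It held 4.14, 4.40, 3.76, 3.24 and 5.07 CPM in the Atf3 libraries and 4.45, 5.49, 3.42, 4.62 and 4.597 in the Atf4 libraries. The Atf3 libraries were all below the control libraries, while 1 Atf4 library overlapped them. It fell by 0.41 on the log2 scale in Atf3 cells (SE 0.12, edgeR adjusted p = 0.00399) and by 0.28 in Atf4 cells (SE 0.11, edgeR adjusted p = 0.0437). The Atf4 call was lost without any 1 of control libraries 2 and 3, Atf3 libraries 1 and 2, or Atf4 libraries 1 and 3, at edgeR adjusted p of 0.0511 to 0.101. The log2 fold change was -0.21 without Atf4 library 3 and -0.29 to -0.26 without the other 5; Atf3 libraries bear on it through the shared estimate of the spread.

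**Figure D3:**
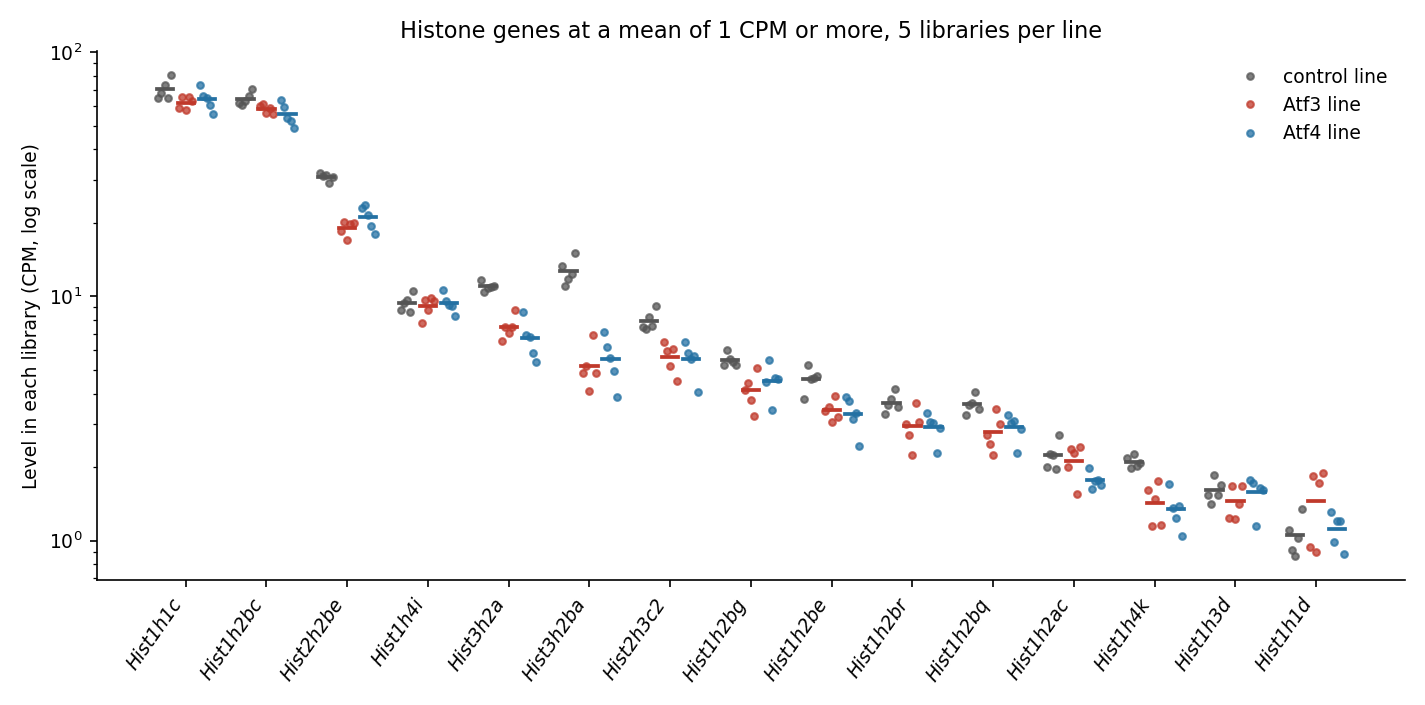
Level in every library of the 15 members that averaged 1 CPM or more, in CPM on a log scale; points are libraries, horizontal bars are line means, with 5 libraries per line. Hist3h2ba, Hist3h2a and Hist2h2be show separate control libraries, while those of Hist1h4i, Hist1h1c and Hist1h3d overlap the other lines.

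Of the remaining members at 1 CPM or more, 3 H2B genes fell in both comparisons. Hist1h2be fell by 0.43 and 0.47 on the log2 scale in the Atf3 and Atf4 lines and kept its call in all 24 refits. Hist1h2bq fell by 0.38 and 0.31, and Hist1h2br by 0.33 and 0.33, but these near-copies share most of their windows. In the Atf4 line the calls of Hist1h2bq and Hist1h2br were lost without control library 4 (edgeR adjusted p = 0.0530 and 0.0516) or Atf4 library 4 (0.0557 and 0.0526). In the Atf3 line that of Hist1h2br was lost without Atf3 library 2 (edgeR adjusted p = 0.05002) or 3 (0.0691). Hist1h2ac, an H2A gene, fell by 0.34 in the Atf4 line, a call lost without control library 5 (edgeR adjusted p = 0.0691), and had a log2 fold change of -0.07 in the Atf3 line. Hist1h3d had -0.15 and -0.02. Hist1h1d, a linker histone, had 0.47 and 0.08, and its Atf3 libraries fell apart, with 0.943 and 0.896 CPM in libraries 1 and 3 and 1.84, 1.71 and 1.90 in libraries 2, 4 and 5.

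Among the 37 tested members under 1 CPM, 4 fell and 1 rose in the Atf3 line, beside 39.8% and 12.4% of all genes at that level. In the Atf4 line 1 fell and 3 rose, beside 26.2% and 10.7%. Hist1h3h, an H3 gene, fell by 0.81 on the log2 scale in the Atf3 line, from 0.518 to 0.291 CPM, and kept its call in the 23 refits that tested it; like all members under 1 CPM named here, it is not tested with a 1 CPM filter. Hist1h2af, an H2A gene, rose from 0.166 CPM to 0.288 in the Atf3 line and 0.315 in Atf4 cells, with log2 fold changes of 0.78 (SE 0.31, edgeR adjusted p = 0.0306) and 0.91 (SE 0.30, edgeR adjusted p = 0.0140). Its Atf4 call held in the 23 refits that tested it, and its Atf3 call was lost without control library 2 or 5 or Atf3 library 4 or 5, at log2 fold changes of 0.59 to 0.75 and edgeR adjusted p of 0.0556 to 0.0984. The other low calls had edgeR adjusted p of 0.0223 to 0.0468 and were lost without some single libraries, with the same direction of change. Some were also lost with another tool, scaling, filter or design. In the Atf3 line Hist1h2bh was not called with DESeq2, limma-voom, no filter or only the lines compared, nor Hist1h3i with no filter. In Atf4 cells Hist1h3b and Hist1h3g were not called with DESeq2, plain library totals, no filter or only the lines compared. With the replicate block Hist1h3g and Hist1h1b were not called, nor was Hist1h1b with no filter. In the Atf3 line Hist1h4j, with a log2 fold change of -0.75, was not called without any 1 of control libraries 3 and 5 and Atf3 libraries 3 and 5 (log2 -0.71 to -0.61, edgeR adjusted p 0.0540 to 0.0802). Hist1h3i, with -0.60, was not called without control library 3 (log2 -0.54, edgeR adjusted p = 0.0508) or Atf3 library 1 (-0.43, 0.0611). Hist1h2bh, with -0.33, was not called without any 1 of control libraries 2, 3 and 4 and Atf3 libraries 1, 4 and 5 (log2 -0.33 to -0.26, edgeR adjusted p 0.0688 to 0.124). In the Atf4 line Hist1h1b, with -0.64, was not called without control library 4 or 5 or Atf4 library 5 (log2 -0.59 to -0.52, edgeR adjusted p 0.0579 to 0.0882). Without control libraries 4 and 5 together it stood at log2 -0.25 there (edgeR adjusted p = 0.419). The rises of Hist1h3b (0.45) and Hist1h3g (0.43) there were lost without any 1 of 5 and 6 libraries, among them control library 4 (log2 0.39 and 0.35, edgeR adjusted p = 0.105 and 0.123). For Hist1h3b the others were control libraries 1 and 3 and Atf4 libraries 4 and 5 (log2 0.29 to 0.41, edgeR adjusted p 0.0876 to 0.179), and for Hist1h3g control libraries 1 and 2 and Atf4 libraries 1, 2 and 3 (log2 0.27 to 0.44, edgeR adjusted p 0.0605 to 0.198).

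The falls were also counted by annotated end. Of 25 tested members with a long 3′ end 12 fell in the Atf3 line and 10 in Atf4 cells, and 0 rose, beside falls of 36.3% and 29.7% of all genes. Without control libraries 4 and 5 the falls were 7 and 6, and with plain library totals 15 and 12, again without shares of all genes from those refits. Of 15 tested members that end near their hairpin 0 fell in the main edgeR fit in either comparison. In the Atf3 line edgeR gave 1 fall with RLE scaling, 1 with plain library totals and 0 to 2 with 1 library left out. At an unadjusted p under 0.05 1 fell in the Atf3 line, and DESeq2 and limma-voom each called 1 fall there. In Atf4 cells the unadjusted count and both tools gave 0 falls, and Hist1h3b rose. Summed, the long class went from 235 ± 13.1 CPM in control cells to 190 ± 9.68 in Atf3 cells and 192 ± 20.5 in Atf4 cells. The class ending near the hairpin summed to 7.49 ± 0.62, 7.28 ± 1.03 and 8.24 ± 0.63 CPM, with overlapping libraries in all 3 lines. The class with neither summed to 6.73 ± 0.77, 5.18 ± 0.53 and 6.01 ± 0.60 CPM. The classes differ in level as well as in annotated end, and whether their changes differ was not tested.

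**Figure D4:**
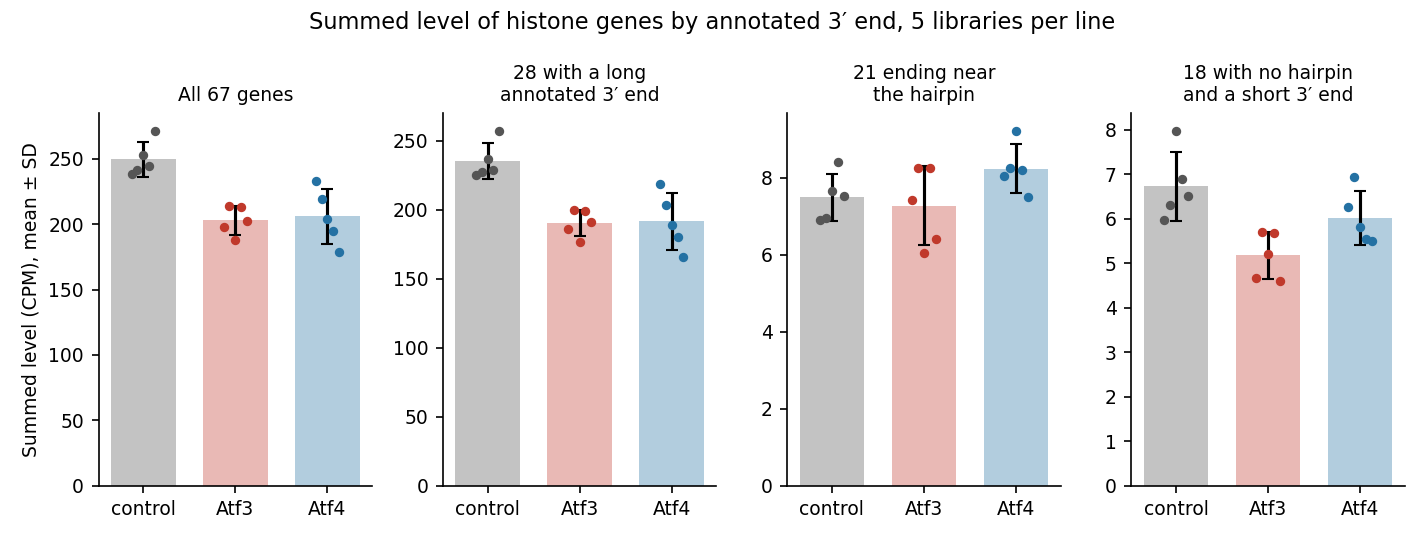
Summed level in CPM of all 67 members and of the members in each class of annotated 3′ end; bars are means of 5 libraries with SD, and points are libraries. Control libraries lie above the others in the first and second panels, and the lines overlap in the third.

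The third comparison set the Atf4 line against the Atf3 line. With edgeR 2 members were higher in the Atf4 line and 0 lower, beside 19.7% and 23.9% of all genes. At an unadjusted p under 0.05 edgeR gave 5 higher and 1 lower, and DESeq2 and limma-voom each called 2 higher and 0 lower. Plain library totals gave 7 higher; they moved the median of all genes to 0.11 in this comparison and to -0.16 in Atf3 against control. Leaving out Atf3 library 2 or Atf4 library 5 gave 4 higher, and leaving out Atf3 library 3, Atf3 library 4 or Atf4 library 1 gave 1 lower. The 2 members were H3 genes at low level, both under 2-fold, and both kept their call in the 23 refits that tested them. With a 1 CPM filter, which leaves both out, Hist2h2be was called higher (log2 0.17, SE 0.07, edgeR adjusted p = 0.0388). Hist1h3b stood at 0.730 ± 0.173 CPM in the Atf4 line and 0.432 ± 0.055 in the Atf3 line (log2 0.74, SE 0.19, edgeR adjusted p = 0.00449). Hist1h3h stood at 0.558 ± 0.166 and 0.291 ± 0.061 CPM (log2 0.95, SE 0.27, edgeR adjusted p = 0.00947). For both, all 5 Atf4 libraries were above all 5 Atf3 libraries, a separation seen upward for 9.52% and downward for 16.3% of all genes.

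Genes that act in S phase were higher in both transgenic lines. All 20 listed S phase genes rose in both comparisons, beside 36.8% and 31.9% of all genes, with median log2 fold changes of 1.64 and 1.76. They included the replicative helicase subunits Mcm5 (2.03 and 2.07) and Mcm6 (2.04 and 1.94) and the ribonucleotide reductase subunit Rrm2 (2.11 and 2.02). Summed, they stood at 712 ± 49.0 CPM in control cells, 2044 ± 76.6 in Atf3 cells and 2010 ± 137 in the Atf4 line. Of 16 G2 and mitosis genes 12 rose and 4 fell in the Atf3 line, beside 36.8% and 36.3% of all genes. In Atf4 cells 12 rose and 0 fell, beside 31.9% and 29.7%.

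Factors that make, process and degrade histone mRNA mostly rose as well. Of 22 tested in the list 16 rose and 2 fell in the Atf3 line, and 14 rose and 1 fell in Atf4 cells, beside rises of 36.8% and 31.9% and falls of 36.3% and 29.7% over all genes. Slbp rose by 1.09 and 1.11 on the log2 scale, and Lsm11, a protein of the U7 particle, by 1.42 and 1.09. Ccne1 and Ccne2, the cyclins that drive the kinase Cdk2 at S phase entry, rose by 1.65 and 2.65 in the Atf3 line and by 1.70 and 2.58 in Atf4 cells, and Cdk2 itself by 1.13 and 1.01. Npat, the histone gene coactivator that this kinase phosphorylates, had 0.08 and 0.09 and did not pass the test. Casp8ap2, which acts with Npat in the histone locus body, rose by 0.51 and 0.48, and Eri1, an exonuclease that trims the histone stem-loop, rose by 0.92 and 0.84. Xrn1, the 5′ to 3′ exonuclease of mRNA decay, fell by 0.89 and 0.56.

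Histone chaperones, which carry new histones to DNA, rose too. Of 20, 18 rose and 2 fell in the Atf3 line, and 16 rose and 2 fell in Atf4 cells, against the same shares of all genes. Chaf1a and Chaf1b, subunits of the replication-coupled assembly factor CAF-1, rose by 2.10 and 2.27 in the Atf3 line and by 2.00 and 2.22 in Atf4 cells. Hat1, which acetylates newly made H4, rose by 1.51 and 1.39. Atrx, which helps to deposit H3.3, fell by 0.74 and 0.48.

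**Figure D5:**
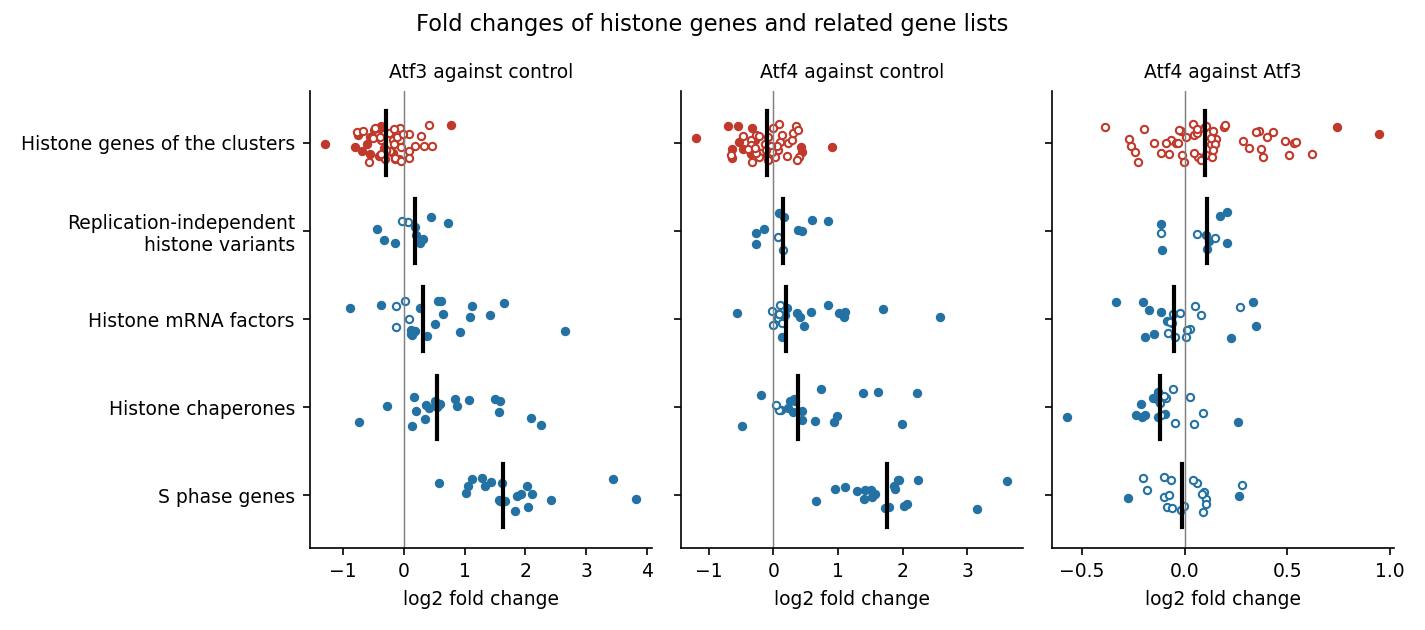
Log2 fold changes of the tested histone members and of 4 gene lists in the 3 comparisons; each point is a gene, filled where it passed an adjusted p under 0.05, and black bars are medians. The S phase genes all lie to the right of 0 against the control line, with medians of 1.64 and 1.76, while the histone members have medians of -0.30 and -0.10.

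Among 11 genes listed as replication-independent variants, which lie outside the clusters, 6 rose and 3 fell in each comparison against the control line. Whether each of them is made independently of S phase was not tested, and hairpins were not searched in them. Over all genes 36.8% and 31.9% rose and 36.3% and 29.7% fell. Plain library totals turned the Atf3 split of the listed variants to 3 rises and 4 falls. H2afz, the gene of H2A.Z, rose by 0.73 and 0.84 on the log2 scale, H2afx by 0.45 and 0.59, and H1f0, a linker histone of slowly dividing cells, by 0.32 and 0.44. H2afv, which encodes another H2A.Z, fell by 0.43 and 0.26, and H3f3a by 0.33 and 0.27. H3f3b had -0.02, which did not pass the test, and -0.14, which did. Clustered members made up 8.41 ± 0.24% of the counts of members and variants in control cells, 6.66 ± 0.22% in Atf3 cells and 6.56 ± 0.36% in Atf4 cells (SD, n = 5).

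Upstream sequence was read for the members that have a promoter window, 62 of 67, in the RefSeq set on GRCm38.p6; a window covers 250 bases before the start of a gene and 50 after it. Windows were missing for Hist1h3f, Hist1h2bc, Hist1h3a, Hist2h2be and Hist2h4. The 250 upstream bases are shown for Hist1h1c, the highest member, Hist3h2ba, the member with the largest fall, and Hist1h4i, the H4 gene that stayed level. In the first and second sequences capitals mark CCAAT on either strand, and in the third they mark TATAA on either strand, where neighbouring matches merge.
Hist1h1c: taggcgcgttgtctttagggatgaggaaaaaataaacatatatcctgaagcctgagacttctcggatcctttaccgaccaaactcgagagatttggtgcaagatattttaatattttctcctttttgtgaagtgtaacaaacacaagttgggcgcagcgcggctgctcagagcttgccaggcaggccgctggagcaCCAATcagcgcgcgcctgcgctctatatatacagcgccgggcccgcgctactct
Hist3h2ba: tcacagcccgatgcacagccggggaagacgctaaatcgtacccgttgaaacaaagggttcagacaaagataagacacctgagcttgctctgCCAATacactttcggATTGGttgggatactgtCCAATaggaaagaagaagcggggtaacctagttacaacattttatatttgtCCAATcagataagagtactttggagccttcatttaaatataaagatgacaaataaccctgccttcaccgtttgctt
Hist1h4i: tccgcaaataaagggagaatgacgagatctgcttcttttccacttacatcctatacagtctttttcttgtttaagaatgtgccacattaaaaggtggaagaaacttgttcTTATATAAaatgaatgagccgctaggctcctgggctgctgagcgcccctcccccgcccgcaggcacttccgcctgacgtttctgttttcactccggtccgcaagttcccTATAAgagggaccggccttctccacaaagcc
These stretches lie at chr13:23738557-23738806 (plus strand), chr11:58948661-58948910 (plus strand) and chr13:22041363-22041612 (minus strand).

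Motifs were searched on both strands, and none of the 5 letter strings contains another. CCAAT, the box bound by NF-Y, was present in the windows of all 50 H1, H2A, H2B and H3 members and of 3 of 12 H4 members, against 37.4% of 32851 RefSeq windows. TATAA was present for 50 of 62 members against 24.9% of windows. ATTTGCA, the core of the octamer bound by Oct-1, was present for 7 of 18 H2A members, 7 of 16 H2B members and no other family, against 4.02% of windows. TGACGT, the half-site of the element bound by ATF and CREB factors, was present for 17 of 62 members against 7.51% of windows, and TGANTCA, the AP-1 site, for 3 of 62 against 7.81%. These counts are not independent, since 12 pairs of an H2A and an H2B gene are transcribed apart from starts 176 to 306 bases from each other, and in the 10 pairs where both members have a window the windows can overlap. A match to these letters is a description of the sequence, and binding was not measured.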

How the data were processed

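RNA was sequenced in 15 libraries, 5 per line, as read pairs of 150 bases, per the labels' protocols. The table deposited by the authors gives unnormalized whole-number counts of each gene. The submitters' processing notes name STAR, edgeR and mm10; which program counted, with which strand setting and annotation, is not given in the sources used here. Of 55416 identifiers 52083 received a GENCODE M21 symbol. The library totals given above sum all counts, while TMM scaling and CPM used the totals of the genes tested. Depth limits mainly members under 1 CPM.

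Counts were fitted in R 4.3.3 with edgeR 4.0.16, using TMM scaling, filterByExpr, 1 fit of 15 libraries with a coefficient per line and the quasi-likelihood test. Benjamini-Hochberg adjustment ran over 18244 genes, with calls at an adjusted p under 0.05. CPM values use TMM-scaled totals of the genes tested. Approximate 95% intervals come from the standard error. The scripts were tested on simulated data. Alternatives were DESeq2 1.42.0, limma-voom (limma 3.58.1), other scalings and filters, only the lines compared, a replicate block and each library left out. Leaving out control libraries 4 and 5 together was chosen after seeing the data.

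Members described library by library are those highest per kb, those with the largest called changes at 1 CPM or more and the highest of each family. From each gene list up to 4 rising and 4 falling genes with the smallest adjusted p are named, with Slbp, Npat, Lsm11, Casp8ap2, Eri1, H2afx, H2afz, H3f3a, H3f3b, H1f0, Atf3 and Atf4 named whatever their result. Members and lists were chosen with earlier results of these data known. Of 24 listed histone mRNA factors 22 were matched.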

Additional observations from a re-analysis of the deposited data

Results flagged for a closer look

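Hist1h3d, an H3 gene, held 1.15 CPM in Atf4 library 3, apart from 1.62 to 1.78 CPM in the other 4 Atf4 libraries. The gap was large for the range of the group. Among 48 groups of 5 values examined, over the members at 1 CPM or more and their sum in each line, this was the 1 such value, and chance alone gives about 1 in 20.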

How the results depend on the processing

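In no alternative run did a called member reverse its direction. Of 16 members called in Atf3 against control 9 kept the call in every refit that tested them, as did 8 of 15 in Atf4 against control and 2 of 2 in Atf4 against Atf3. The 1 CPM filter tested 16 members, among them 8, 7 and 0 of these, and a 2-fold limit on the same fit kept 1, 1 and 0 calls. For Atf3 against control the 1 rise became 2 with DESeq2 or no filter and 0 with plain totals, a 1 CPM filter or a 2-fold limit, and ranged from 0 to 2 with 1 library left out; the 15 falls became 21 with plain totals and 1 at 2-fold and ranged from 11 to 16 with 1 library left out. For Atf4 against control the 3 rises became 1 with DESeq2, plain totals, no filter, only the lines compared, or without control libraries 4 and 5, and 0 with the 1 CPM filter or the 2-fold limit, and ranged from 1 to 3 with 1 library left out; the 12 falls became 7 without control libraries 4 and 5 and 1 at 2-fold, and ranged from 10 to 16. For Atf4 against Atf3 the 2 rises became 7 with plain totals, 1, a different member, with the 1 CPM filter and 0 at 2-fold, and ranged from 2 to 4, and the 0 falls ranged from 0 to 1. Falls among the 15 members at 1 CPM or more ranged from 8 to 11 and from 9 to 12 with 1 library left out, and the second became 7 without control libraries 4 and 5. The 1 CPM filter leaves most members under 1 CPM untested, so their calls are absent there. Causes of the other changes were not tested. With the replicate number as a block the falls were 14 and 12 and the rises 1 and 2 against the control line, and 0 and 2 for Atf4 against Atf3. The correlations of 15 same-numbered pairs ran from -0.079 to 0.098, and 2 of 15 libraries correlated best with their own number. These values show no pairing by number, but low correlations cannot exclude a shared culture or day, which the labels do not state.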
